A study of Homo sapiens with 12 samples.

Results

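The genes described here are 50 human genes whose products build and police the mitotic spindle, namely mitotic kinesins, centromere and kinetochore proteins, the spindle assembly checkpoint, the mitotic kinases, the triggers of anaphase and the machinery of cytokinesis. They were taken by symbol from a table of 19973 genes, and all 50 were found in it. RNA had been sequenced from 2 established non-small cell lung cancer (NSCLC) lines, H460 and A549, with and without ISP-I (isovalerylspiramycin I), a macrolide. Both lines were labelled as wild type in genotype, although the paper states that both carry homozygous inactivating mutations of KEAP1. Control cells were non-treated, and treated cells received ISP-I at 10 µM for 48 h. There were 3 libraries in each of the 4 groups and 12 in all. Neither the labels nor the account of the RNA sequencing says that the libraries of a group came from separate cultures, so the p values measure the spread between these libraries only.

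When a cell enters mitosis, kinesin motors separate the spindle poles and move chromosomes, and kinetochores assembled on centromeric chromatin bind the ends of spindle microtubules. Kinetochores without attached microtubules keep the spindle checkpoint on, which holds back CDC20 and the anaphase-promoting complex until every chromosome is attached. Separase then opens cohesin and the cytokinetic ring divides the cell. Most of these genes are transcribed late in the cell cycle through the MuvB, B-MYB and FOXM1 regulators acting at promoter elements named CHR (cell cycle genes homology region) and CCAAT boxes, so in cycling tumour cells their mRNAs are usually made together.

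The deposited unit is FPKM, reads scaled by gene length and by the total of reads counted on genes, and depth was 14225849 to 17874422 reads per library. ISP-I was compared with control in each line by limma on log2(FPKM + 1). A gene passed at a Benjamini-Hochberg adjusted p under 0.05 and was called when it also changed over 2-fold on that scale, which understates the change of genes near or under 1 FPKM. The median log2 fold change of all tested genes was -0.15 in H460 and 0.02 in A549. In H460, 2047 genes were called lower and 1409 higher, but 1504 lower and 1954 higher after median-of-ratios scaling, so that values in H460 are best read relative to the median of all genes. Summed FPKM of leukocyte markers was at most 0.0679 and of endothelial markers at most 0.368 in any library, with CD3E at 0 in all, fibroblast markers summed to 0.704 to 1.60, and the epithelial markers summed to 251 to 1173 (CDH1 was at 0 in the H460 controls). CDKN2A, which both lines are known to have lost, was at most 0.328 FPKM.

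Some libraries stood apart in a way that touched the mitotic genes, through the GC content of their transcripts. In A549 control library 3, the 24 members lowest in GC content had a median level of 0.459 times the mean of the other 2 libraries, against 1.07 times in the 24 highest. TTK, a checkpoint kinase with 36.4% GC, was at 11.9, 12.2 and 3.82 FPKM in the 3 A549 controls, whereas PLK1 with 57.1% GC was at 47.2, 48.1 and 56.0. H460 ISP-I library 3 was low in the same genes (0.485 times in the 24 lowest and 1.02 times in the 24 highest), H460 ISP-I library 2 was high in them (1.94 and 0.856 times), and H460 control library 2 was low (0.672 and 1.04 times). H460 control library 1 was high in them (1.30 and 0.946 times), and in A549 control libraries 1 and 2 the ratio to the mean of the other 2, which includes the low library 3, was also above 1 (1.32 and 1.36 times in the 24 lowest, 0.982 and 0.955 times in the 24 highest). Over the 48 members with a mean of at least 0.5 FPKM in every group, Spearman's rho between GC content and the ratio was 0.858 for A549 control library 3 and 0.687 for H460 ISP-I library 3. Over all genes with at least 1 FPKM in each library of the group concerned it was 0.682 and 0.481. These are correlations across genes of 1 library and carry no p. The A549 ISP-I libraries did not differ in this way, with medians of 0.914 to 1.04 times in both sets. The SD between libraries was a median of 38.2% of the mean in the 24 lowest in the A549 controls and 8.36% in the 24 highest, and 46.1% and 14.3% in H460 after ISP-I. Counts are therefore also given without these libraries. The falls are given by GC content as well, as a description. Of the members split at the middle by GC, 14 of 24 with less GC and 23 of 25 with more passed lower in H460 (medians of -0.87 and -1.69). In A549, 18 and 23 of 25 did (-0.81 and -1.003). Of all tested genes, 41.5% passed lower in H460 and 27% in A549. The difference between the lines is the log2 fold change in H460 minus that in A549. By that measure, 5 of the 25 with less GC and 16 of the 25 with more passed with the lower response in H460 (medians of -0.09 and -0.66). Among all tested genes 34.7% did. The part of GC content in these results was not tested beyond removing the GC trend of each library.

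**Figure D1:**
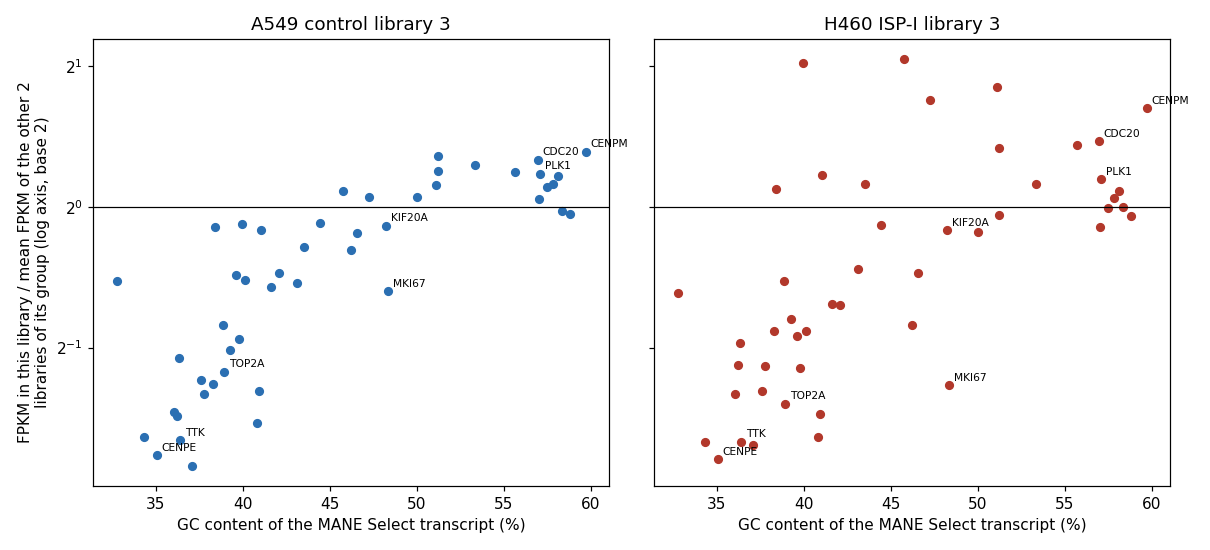
Level of each mitotic gene in 1 library divided by the mean of the other 2 libraries of its group (y axis, FPKM ratio, log scale of base 2) against the GC content of its transcript in percent (x axis), for A549 control library 3 (left, blue) and H460 ISP-I library 3 (right, red), each point a gene and the line a ratio of 1. Most genes with little GC lie below 1, with CENPE and TTK among the lowest, whereas PLK1 and CDC20 lie above it in both libraries. Exceptions in H460 ISP-I library 3 include SPC25, BUB3 and MAD2L1, at 2.03, 1.17 and 1.09.

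Most of the genes fell in both lines. In H460, 37 of the 49 tested passed with lower levels (41.5% of all tested genes did) and 1, KIF18A, with higher levels (27.6% did). Over 2-fold falls were called for 29 members (15.2% of all genes), and in 38 every ISP-I library lay below every control library (43.1%). In A549, 41 of 50 passed with lower levels (27% of all tested genes) and 0 with higher levels (30.5%). The 0 with higher levels also held in both voom fits and at an unadjusted p under 0.05. Of these 50, 18 were called lower (3.51%), 0 were called higher (4.2%) and the groups did not overlap in 38 (30.7%). The median log2 fold change of the members was -1.11 in H460 and -0.85 in A549, which was -0.96 and -0.87 relative to the median of all genes. Members took 0.653%, 0.607% and 0.653% of all reads in the H460 controls and 0.253%, 0.282% and 0.219% after ISP-I. In A549 the shares were 0.802%, 0.811% and 0.621% in controls and 0.363%, 0.380% and 0.372% after ISP-I. In bulk RNA, a change in the share of cells in G2 or mitosis and a change in the amount of these mRNAs per cell cannot be told apart.

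The counts were also taken without the libraries that followed GC content. Without ISP-I library 2 of H460, 42 members passed lower and 33 were called; without ISP-I library 3, 38 passed and 26 were called; without control library 2, 39 passed and 33 were called; without control library 1, 36 passed and 27 were called. Without control library 3 of A549, 47 passed and 26 were called, with a median of -1.02. Without control library 1 of A549, 37 passed and 15 were called, and without control library 2, 35 passed and 15 were called. After the GC trend of each library was removed, 42 passed and 29 were called in H460 (35.7% and 11.8% of all genes). In A549, 46 passed and 25 were called (31.6% and 3.70%). Without each of the H460 libraries named here, 37.7% to 43.7% of all genes passed lower and 14.7% to 16.4% were called. Without A549 control library 3 these shares were 32.25% and 3.63%. Without A549 control library 1 or 2, 24.0% and 24.7% of all genes passed lower and 3.6% were called.

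**Figure D2:**
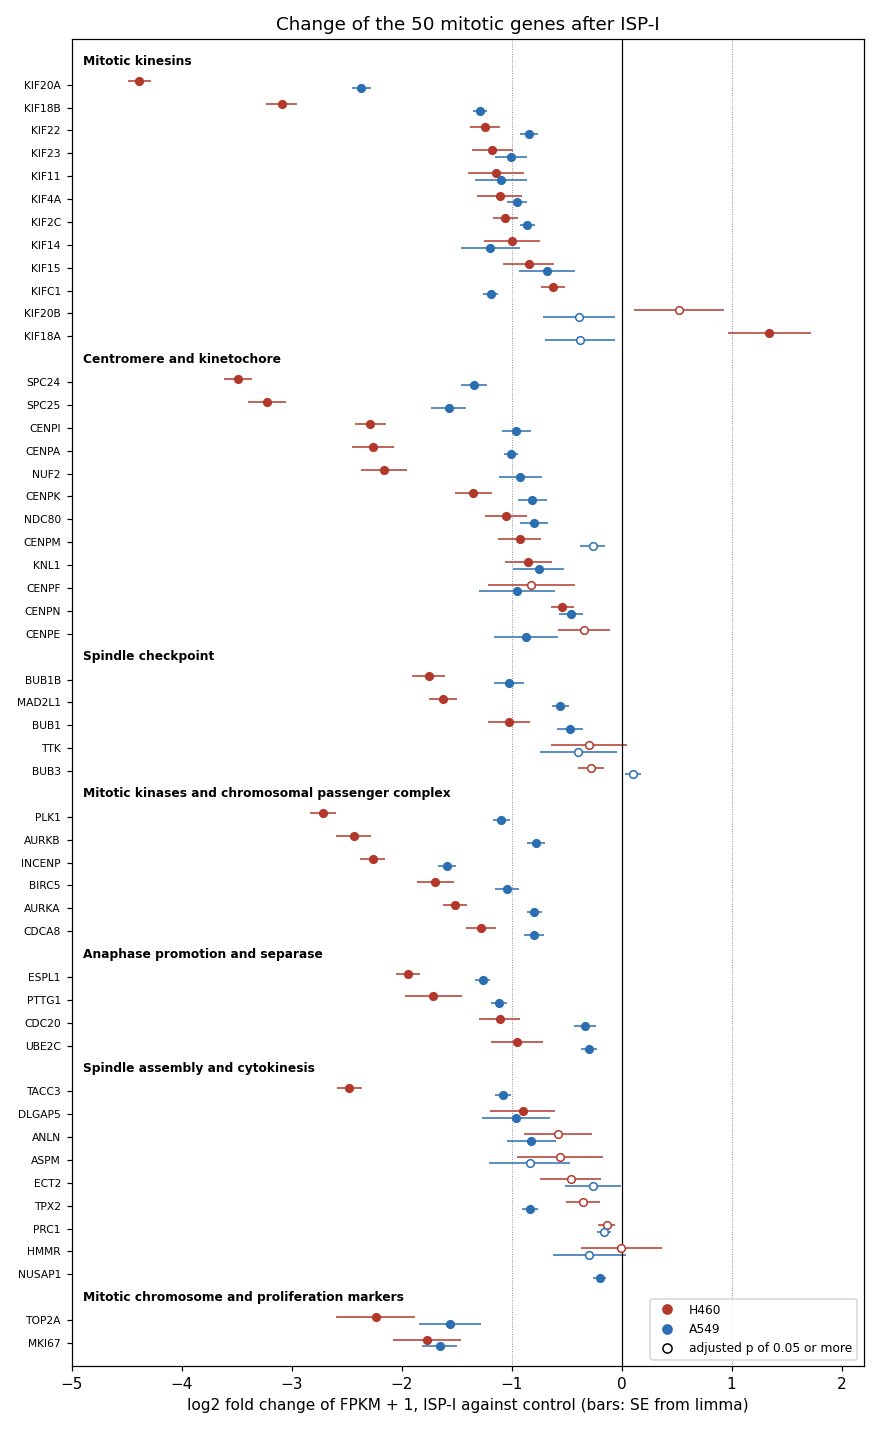
Log2 fold change of FPKM + 1 after ISP-I (x axis) for each gene (y axis), grouped by role and ordered by the change in H460, in H460 (red) and A549 (blue). Bars are standard errors from limma (3 libraries against 3), open circles mark an adjusted p of 0.05 or more, and dotted lines mark 2-fold; nearly all points lie left of 0, KIF20A lies farthest left in both lines, and KIF18A in H460 is the filled point right of 0.

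**Figure D3:**
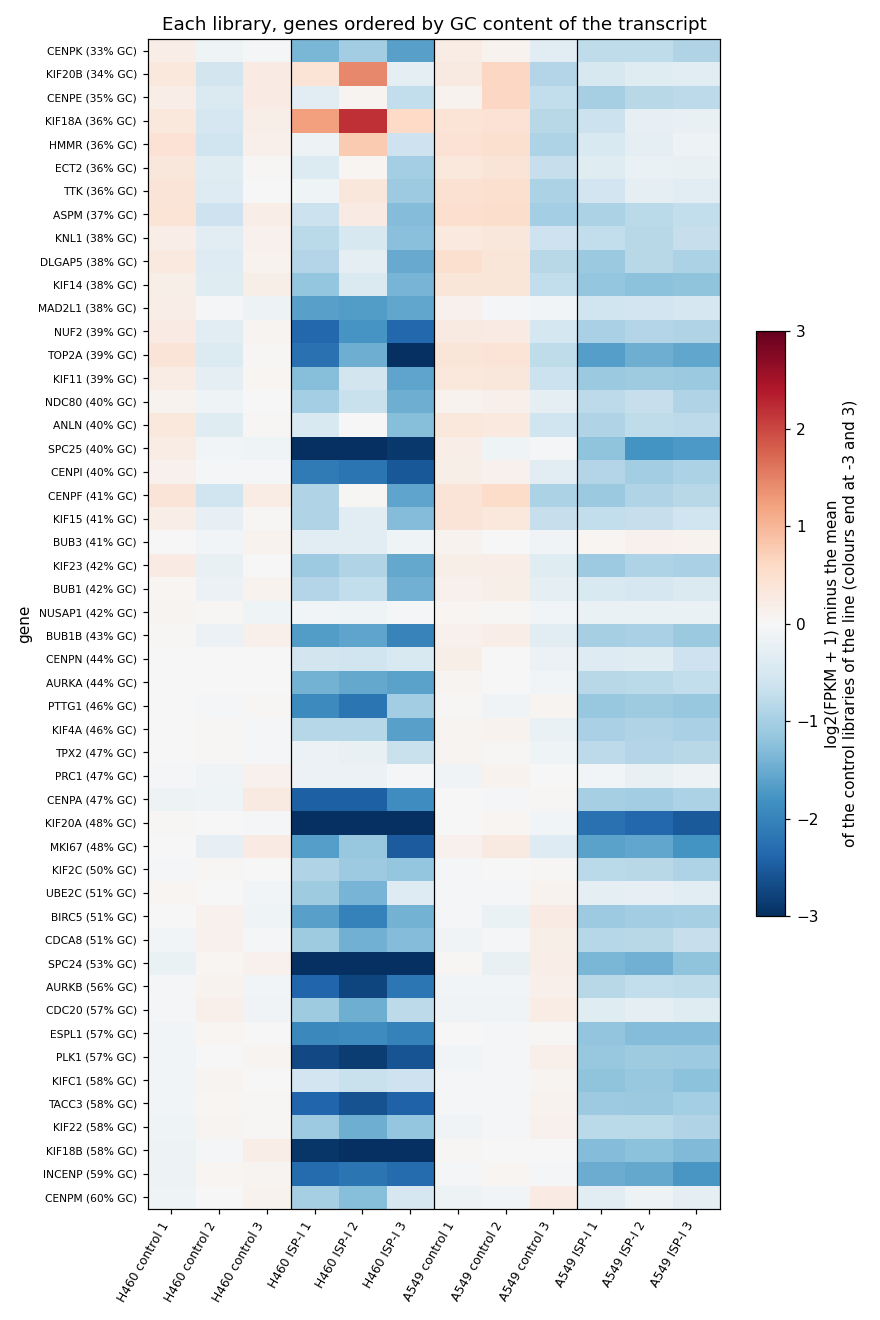
Log2(FPKM + 1) of each gene (rows, ordered from low GC content at the top to high at the bottom) in each of the 12 libraries (columns), minus the mean of the 3 control libraries of the same line; colours end at -3 and 3. Treated libraries are blue over most rows, and in the upper rows single libraries such as A549 control 3 and H460 ISP-I 2 differ from the others of their group.

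The promoters of these genes shared the elements of late cell cycle genes. RefSeq promoters of GRCh38.p14, from 250 bases before to 50 after the start, were at hand for 42 of the 50 genes, and CENPM, KNL1, BUB3, TTK, AURKA, BIRC5, UBE2C and TPX2 were not in that table. On both strands, 78.6% of the 42 held a CHR (TTTGAA or TTCGAA), against 16.4% of all 35116 promoters. At least 1 CCAAT was found in 78.6% against 34.6%, and at least 2 in 50% against 10.8%. Both a CHR and a CCAAT were present in 66.7% against 6.38%, and an E2F site (TTTCCCGC, TTTGGCGC, TTTCGCGC or TTTGCCGC) in 7.14% against 3.31%. In MKI67 and CDCA8 a CHR and a CCAAT match overlap by their end base. The 6 sequences given here belong to the members with a CHR and at least 2 CCAAT boxes whose levels changed most in H460, written 5′ to 3′ on the gene's strand for the 250 bases before the start, with CHR and CCAAT matches on either strand in capitals (CCAAT on the other strand reads ATTGG). They are SPC25, a subunit of the NDC80 complex (chr2:168890431-168890680, minus strand), KIF18B, a kinesin of astral microtubules (chr17:44947774-44948023, minus strand), INCENP, the scaffold of the chromosomal passenger complex (chr11:62123761-62124010, plus strand), CENPA, the histone of the centromere (chr2:26785806-26786055, plus strand), TOP2A, topoisomerase II alpha (chr17:40417897-40418146, minus strand), and MKI67, the Ki-67 protein (chr10:128126424-128126673, minus strand).
SPC25: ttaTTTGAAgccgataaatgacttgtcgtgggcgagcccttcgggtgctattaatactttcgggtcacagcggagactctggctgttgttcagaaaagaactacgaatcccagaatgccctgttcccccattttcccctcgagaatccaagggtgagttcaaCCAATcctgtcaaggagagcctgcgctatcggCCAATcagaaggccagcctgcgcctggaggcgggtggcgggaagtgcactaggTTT
KIF18B: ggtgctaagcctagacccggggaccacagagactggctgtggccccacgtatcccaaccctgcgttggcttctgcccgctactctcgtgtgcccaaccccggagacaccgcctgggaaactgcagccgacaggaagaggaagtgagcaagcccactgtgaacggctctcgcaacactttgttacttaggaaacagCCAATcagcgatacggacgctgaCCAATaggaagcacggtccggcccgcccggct
INCENP: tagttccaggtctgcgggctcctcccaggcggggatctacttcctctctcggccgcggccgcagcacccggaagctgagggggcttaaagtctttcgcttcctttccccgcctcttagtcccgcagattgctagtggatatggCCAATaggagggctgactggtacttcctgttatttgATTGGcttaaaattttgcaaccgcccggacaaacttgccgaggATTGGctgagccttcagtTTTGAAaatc
CENPA: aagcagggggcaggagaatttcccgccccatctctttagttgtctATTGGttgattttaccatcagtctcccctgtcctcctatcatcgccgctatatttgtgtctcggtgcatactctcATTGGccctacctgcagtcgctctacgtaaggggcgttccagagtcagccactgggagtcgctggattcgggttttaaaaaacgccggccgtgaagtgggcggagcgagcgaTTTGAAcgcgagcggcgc
TOP2A: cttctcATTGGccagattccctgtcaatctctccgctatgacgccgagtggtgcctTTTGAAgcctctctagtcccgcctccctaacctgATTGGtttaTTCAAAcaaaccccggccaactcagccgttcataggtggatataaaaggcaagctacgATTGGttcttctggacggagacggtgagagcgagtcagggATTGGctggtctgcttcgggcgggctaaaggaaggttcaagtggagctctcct
MKI67: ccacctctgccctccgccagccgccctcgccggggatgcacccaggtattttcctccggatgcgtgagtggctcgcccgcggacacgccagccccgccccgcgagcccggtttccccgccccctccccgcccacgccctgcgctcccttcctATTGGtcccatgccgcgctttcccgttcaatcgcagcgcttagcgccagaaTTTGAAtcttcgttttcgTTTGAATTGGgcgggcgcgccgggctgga
The second CHR of SPC25 crosses the start, so only its first bases are shown, and the only CHR of KIF18B lies just after the start and outside the stretch shown. In INCENP, CENPA and MKI67 a CHR lies within 30 bases before the start. Large falls were seen with and without these matches. KIF20A, SPC24, TACC3, AURKB and CENPI, among the largest falls in H460, had no CHR match in the window, whereas KIF18A, which rose in H460, had 1 CHR and 1 CCAAT box. A missing match says only that these letters are not in this window.

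**Figure D4:**
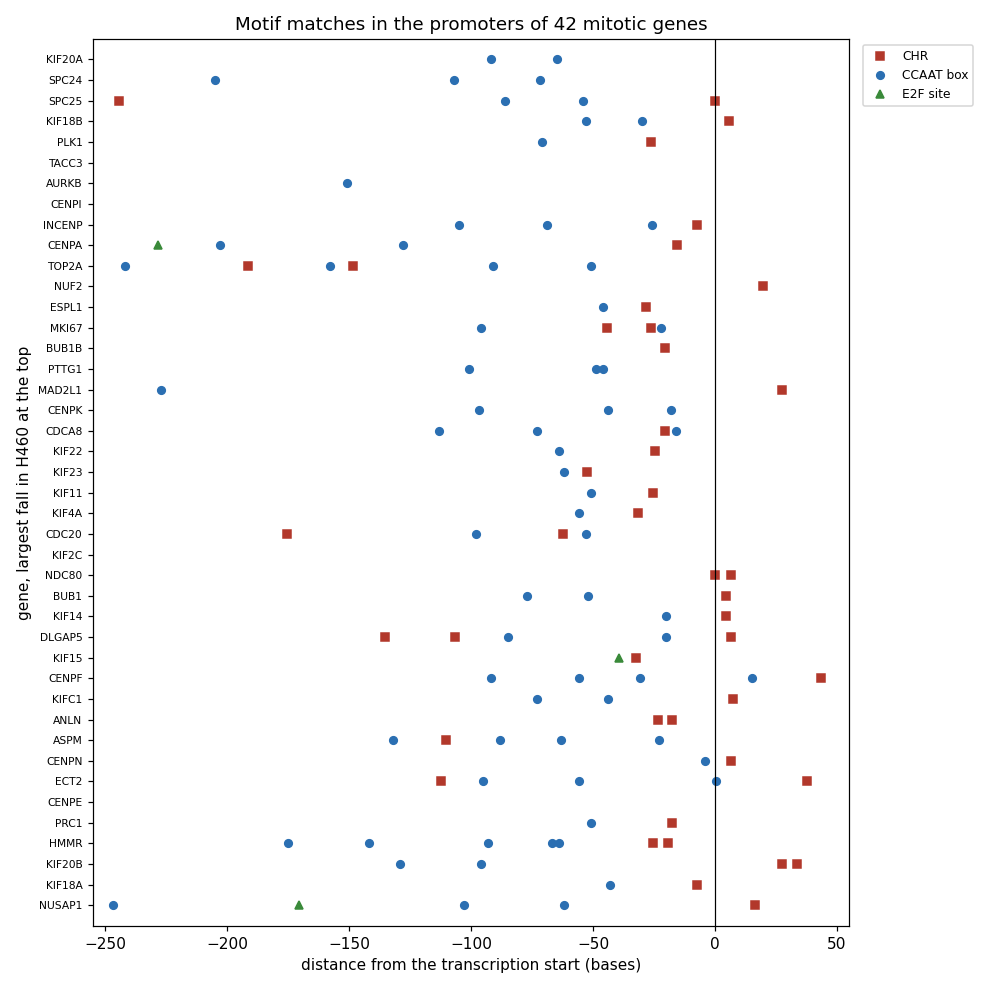
Positions of matches to the CHR (red squares), the CCAAT box (blue circles) and the E2F site (green triangles) in the promoters of 42 mitotic genes, as distance in bases from the transcription start (x axis, line at 0), with the gene of the largest fall in H460 at the top. CCAAT boxes lie mostly 50 to 100 bases before the start and CHR matches mostly within 50 bases of it, over the whole height of the plot.

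Among the 12 mitotic kinesins, 10 fell and 1 rose in H460 (41.5% and 27.6% of all tested genes), and 10 fell in A549 (27%). KIF20A (chr5:138178719-138187723), also known as MKLP2, carries the chromosomal passenger complex to the spindle midzone. It was at 54.7, 53.4 and 52.3 FPKM in H460 controls and 1.61, 1.73 and 1.49 after ISP-I, and at 42.9, 44.5 and 39.8 in A549 controls and 8.26, 7.51 and 6.55 after ISP-I. The treated libraries lay far below every control in both lines. Its mean was 3.01% of control in H460 (log2 fold change -4.39 ± 0.103 SE, adjusted p = 6.54e-08, limma) and 17.6% in A549 (-2.36 ± 0.0899, adjusted p = 7.69e-07), the largest fall of the 50 genes in each line. KIF18B (chr17:44924709-44947773), which shortens astral microtubules together with KIF2C, was at 41.1, 44 and 52.4 FPKM in H460 controls and 5.14, 3.87 and 4.49 after ISP-I. In A549 it went from 37.5, 36.5 and 36.2 to 14.4, 15 and 14.0. It fell to 9.81% of control in H460 and 39.4% in A549 (adjusted p = 7.24e-07 and 2.04e-06, limma), with no overlap in either line.

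KIF18A (chr11:28020619-28108156), which dampens chromosome movements at the metaphase plate, was the only member that rose. It was at 4.03, 1.84 and 3.52 FPKM in H460 controls and 8.34, 17.4 and 5.12 after ISP-I (log2 fold change 1.34 ± 0.379 SE, adjusted p = 0.0122, limma). Every treated library was above every control, but the treated values spread more than 3-fold, and the highest was library 2, the one high in low-GC transcripts (KIF18A has 36.0% GC). Without that library the log2 fold change was 0.91 (adjusted p = 0.0148), below 2-fold, and with the GC trend removed it was 1.10 (adjusted p = 0.00708). In A549, KIF18A was at 11.1, 11.5 and 4.11 in controls and 4.86, 6.70 and 6.79 after ISP-I, and the groups overlapped through control library 3 (log2 fold change -0.38, adjusted p = 0.342; -0.80 without that library, adjusted p = 0.000125). KIF20B, a kinesin of late cytokinesis with 34.3% GC, also had log2 fold changes of opposite sign, 0.52 in H460 and -0.39 in A549 (adjusted p = 0.284 and 0.341, limma). Its libraries read 3.72, 1.57 and 3.49 in H460 controls and 4.07, 9.26 and 2.09 after ISP-I, and 7.09, 9.34 and 2.64 in A549 controls and 3.85, 4.25 and 4.33 after ISP-I, overlapping in both lines. Without H460 ISP-I library 3 it passed with a higher level (0.93, adjusted p = 0.0258), and without A549 control library 3 with a lower level (-0.83, adjusted p = 4.31e-05).

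Of the other kinesins, KIF11 (Eg5), which pushes the spindle poles apart and is the target of several antimitotic drugs, fell to 44.5% of control in H460 and 43.0% in A549. KIF15, which can take over from KIF11, fell to 43.2% and 50.7%, although the A549 groups overlapped, its adjusted p there was 0.0484 (limma), and it no longer passed without any single library but control 3 (adjusted p = 0.0957 to 0.155). KIF23 (MKLP1), part of centralspindlin in the midzone, fell to 39.5% and 47.6%, and KIF14, which acts with citron kinase in cytokinesis, to 44.8% and 35.0%. KIF4A and KIF22, the chromokinesins, fell to 46.1% and 41.4% in H460 and 49.5% and 54.5% in A549; KIF4A has a near-identical intronless copy, KIF4B, with which reads may be shared. KIF2C (MCAK), which corrects wrong attachments, fell to 46.5% and 53.4%. KIFC1, the minus-end motor that clusters extra centrosomes, fell by more in A549 than in H460. It was at 35.3, 39.9 and 37.4 FPKM in H460 controls and 25, 23.1 and 23.9 after ISP-I, and at 37.4, 37.5 and 41.2 in A549 controls and 16.2, 16.9 and 15.9 after ISP-I. It fell to 63.9% of control in H460 and 42.3% in A549 without overlap, and the difference of the responses passed at 0.57 ± 0.111 SE (adjusted p = 0.001, limma).

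In the centromere and kinetochore group, 10 of 12 genes fell in H460 and 11 of 12 in A549 (41.5% and 27% of all tested genes). The 4 subunits of the NDC80 complex, the microtubule grip of the kinetochore, fell unequally in H460. SPC24 (chr19:11131520-11155808) was at 16.4, 19.6 and 20.9 FPKM in H460 controls and 0.828, 0.656 and 0.831 after ISP-I, the latter from 31 to 42 reads per library. SPC25 was at 19.0, 15 and 14.5 in controls and 0.551, 0.722 and 1.29 after ISP-I, from 18 to 35 reads. These were falls to 4.07% and 5.29% of control (log2 fold changes -3.49 ± 0.126 and -3.22 ± 0.173 SE, adjusted p = 3.03e-07 and 1.46e-06, limma). NUF2 went from 14.0, 9.13 and 12.4 to 1.48, 2.73 and 1.46 FPKM in H460, which is 16.0% of control. NDC80 itself (HEC1) was at 6.47, 5.39 and 6.02 in controls and 2.41, 3.40 and 1.54 after ISP-I, a fall to 41.0%. In A549 the spread among the subunits was narrower, with 34.7% of control for SPC24 (13.3, 11.1 and 15 against 4.41, 4.18 and 5.13 FPKM), 27.9% for SPC25 (12.5, 9.75 and 10.2 against 4.10, 2.37 and 2.59), 47.7% for NUF2 (15.9, 15.8 and 8.86 against 6.16, 6.71 and 6.51) and 50.4% for NDC80. No group of the 4 overlapped with its control in either line.

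CENPA, the histone H3 variant that marks the centromere, was at 17.7, 18.0 and 23.8 FPKM in H460 controls and 2.76, 2.77 and 4.67 after ISP-I, or 17.1% of control. Its A549 libraries stood at 24.2, 23.5 and 25 in controls and 11.6, 11.2 and 12 after ISP-I, or 47.8%. CENPI, of the constitutive centromere network that sits on CENPA chromatin, went from 9.15, 7.95 and 7.89 to 1.14, 1.04 and 0.593 in H460 (11.1% of control, adjusted p = 2.74e-06, limma) and from 10.8, 10.4 and 7.40 to 4.68, 4.03 and 4.39 in A549 (45.8%). Of 3 further network proteins, CENPK fell to 31.8% and 52.5% and CENPN to 64.7% and 69.8%, and CENPM passed in H460 and not in A549. CENPM was at 16.7, 18.8 and 20.0 in H460 controls and 8.79, 6.96 and 12.8 after ISP-I (adjusted p = 0.00269), and at 15.2, 16.1 and 20.5 in A549 controls and 13.3, 15.3 and 13.7 after ISP-I, where 1 treated library lay above 1 control (adjusted p = 0.0779). The difference of its responses was -0.66 ± 0.244 SE (adjusted p = 0.0374), and it missed the threshold after median-of-ratios scaling (-0.37, adjusted p = 0.243) and without any of 9 single libraries (adjusted p = 0.0516 to 0.0883). KNL1, the scaffold on which checkpoint proteins gather, fell to 40.6% and 45.8%, the latter no longer passing when A549 control library 1 or 2 or any single ISP-I library was left out (adjusted p = 0.0569 to 0.0800).

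CENPE and CENPF, large coiled-coil proteins of the outer kinetochore with 35.1% and 40.8% GC, overlapped between treated and control libraries in H460. CENPE was at 1.47, 0.570 and 1.51 FPKM in H460 controls and 0.676, 1.25 and 0.278 after ISP-I, overlapping (adjusted p = 0.228, limma), and at 2.58, 4.10 and 0.982 in A549 controls and 0.654, 0.860 and 0.920 after ISP-I, without overlap (adjusted p = 0.0323). CENPF read 9.80, 4.49 and 8.61 against 3.45, 7.46 and 1.76 in H460 (adjusted p = 0.0964) and 18.7, 21.1 and 6.85 against 5.99, 7.07 and 7.41 in A549 (adjusted p = 0.0434), with overlap in both lines. With the GC trend removed both passed with lower levels in H460 (adjusted p = 0.00503 for CENPE and 0.0450 for CENPF). In A549 neither passed when any library but control 3 was left out (adjusted p = 0.0659 to 0.104 for CENPE and 0.0892 to 0.138 for CENPF).

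Of the 5 checkpoint genes, BUB1, BUB1B and MAD2L1 fell in both lines, and TTK and BUB3 passed in neither. Among all tested genes 41.5% fell in H460 and 27% in A549. BUB1B (BubR1), which with MAD2 and BUB3 forms the inhibitor of CDC20, was at 20.9, 17.6 and 22.4 FPKM in H460 controls and 5.67, 6.04 and 4.30 after ISP-I. In A549 it was at 18.6, 19.5 and 13.1 in controls and 8, 8.13 and 7.26 after ISP-I. These were the largest falls of the group, to 26.3% (adjusted p = 1.34e-05, limma) and 45.6% of control (adjusted p = 0.000384). MAD2L1, which encodes MAD2, went from 19.2, 16.1 and 15 to 4.68, 4.51 and 5.02 in H460 (28.3%) and from 16.5, 14.7 and 14.1 to 9.67, 9.79 and 10.4 in A549 (65.8%), without overlap. BUB1, a kinase at the kinetochore that recruits the other checkpoint proteins, fell to 47.9% and 69.9%. BUB3, a WD40 protein that is also present through the rest of the cycle, was at 30.4, 28.9 and 33.0 FPKM in H460 controls and 24.0, 24.0 and 28.0 after ISP-I, just below them (82.3%, adjusted p = 0.0664, and 0.0132 without ISP-I library 3). In A549 it was at 29.7, 27.6 and 25.5 in controls and 28.8, 30.2 and 29.8 after ISP-I (107%, adjusted p = 0.270, limma). On the log2 scale BUB3 moved by -0.27 in H460. The median gene there moved by -0.15, or by -0.22 among genes averaging at least 1 FPKM. TTK (MPS1), the kinase that starts the checkpoint signal, read 6.10, 3.19 and 4.49 in H460 controls and 3.97, 5.95 and 1.56 after ISP-I, and 5.27, 6.79 and 6.38 in A549 after ISP-I against the controls given above. Both pairs of groups overlapped (adjusted p = 0.466 and 0.364), and without A549 control library 3 TTK passed with a lower level in that line (-0.87, adjusted p = 1.17e-05).

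All 6 mitotic kinases and chromosomal passenger proteins fell in both lines (41.5% of all tested genes did in H460 and 27% in A549). PLK1 (chr16:23677656-23690367), the polo kinase of mitotic entry, centrosomes and kinetochores, was at 63.9, 68.9 and 71.8 FPKM in H460 controls and 9.64, 8.63 and 10.4 after ISP-I. Its A549 controls were at the levels given above, and 22.5, 23.4 and 23.2 followed ISP-I. This was 14.0% of control in H460 (log2 fold change -2.71 ± 0.117 SE, adjusted p = 6.17e-07, limma) and 45.7% in A549 (-1.09 ± 0.0792, adjusted p = 1.42e-05). AURKA, the kinase of centrosomes and spindle poles, went from 88.7, 86.6 and 86.9 to 32.2, 29.6 and 28.2 in H460 (34.3%) and from 75.2, 70.3 and 67.2 to 39.1, 39.9 and 42.2 in A549 (57.0%). AURKB, the catalytic subunit of the passenger complex, went from 55.2, 61.5 and 53.9 to 10.1, 7.50 and 11.9 in H460 (17.3%) and from 49.6, 50.2 and 59.3 to 29.2, 31.4 and 30.8 in A549 (57.5%). None of these groups overlapped.

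Of the partners of AURKB, INCENP was at 36.6, 42.5 and 42.8 FPKM in H460 controls and 7.41, 8.14 and 7.44 after ISP-I, and at 42.7, 45.7 and 42.7 in A549 controls and 15.1, 14.4 and 12.3 after ISP-I. It had the largest fall of this group in A549, to 31.9% of control (adjusted p = 3.5e-06, limma), beside 18.9% in H460. BIRC5 (survivin), which brings the complex to centromeres, went from 78.6, 85.6 and 71.1 to 24.4, 18.5 and 28.6 in H460 (30.4%) and from 79.8, 71.9 and 97.4 to 38.4, 39.5 and 40.6 in A549 (47.6%). CDCA8 (borealin) had the smallest fall of the group in H460, from 40.5, 47.6 and 41.8 to 20.0, 15.2 and 16.9 (40.1%), and fell from 35.3, 36.2 and 42.7 to 20.3, 20.9 and 23.2 in A549 (56.4%). The treated libraries of all 3 lay below every control of the same line.

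**Figure D5:**
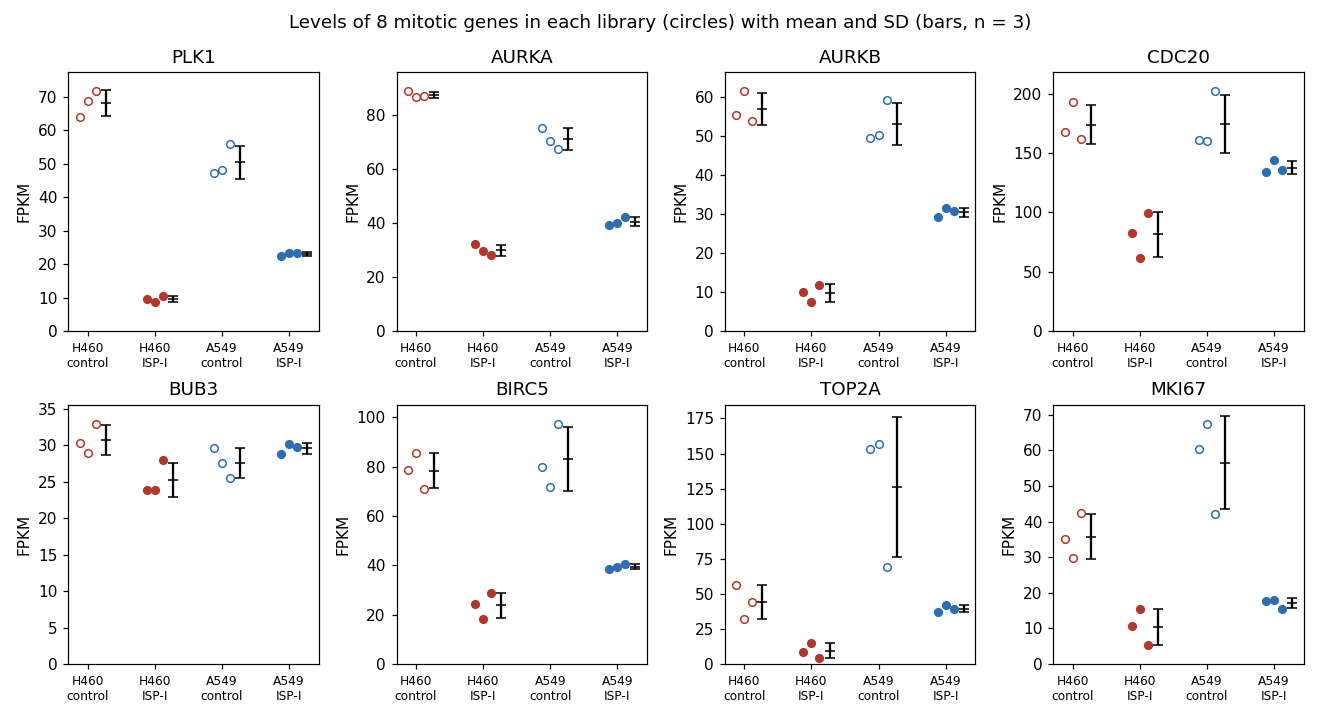
FPKM (y axes, each from 0) of 8 mitotic genes in each library of H460 (red) and A549 (blue), with open circles for control and filled circles for ISP-I libraries and a bar for the mean and SD of the 3 libraries beside them. In 7 of the 8 panels the treated libraries lie below all controls of the same line, and in BUB3 they lie just below in H460 and overlap the controls in A549.

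The 4 genes of anaphase promotion fell in both lines (41.5% of all tested genes did in H460 and 27% in A549). CDC20, the activator of the anaphase-promoting complex and the most abundant of the 50 mRNAs in the controls of both lines, was at 168, 193 and 161 FPKM in H460 controls and 82.8, 61.7 and 99.8 after ISP-I. It was at 161, 159.8 and 202 in A549 controls and 134, 144 and 136 after ISP-I. The fall to 46.8% in H460 (adjusted p = 0.000813, limma) and 79.0% in A549 (adjusted p = 0.0232) kept the groups apart, but in A549 it no longer passed when any single ISP-I library was left out (adjusted p = 0.0503 to 0.0846). UBE2C, the ubiquitin-conjugating enzyme of the same complex, went from 127, 122 and 115 to 57.1, 45.6 and 92.3 in H460 (53.6%) and from 119, 118 and 132 to 101, 102 and 96.3 in A549 (81.4%), the smallest falls of the group. PTTG1 (securin), the inhibitor of separase that CDC20 marks for destruction, fell to 31.7% and 45.2%; near-identical PTTG1 copies elsewhere in the genome may share its reads. ESPL1, separase itself, went from 18.7, 20.5 and 19.8 to 4.45, 4.61 and 4.10 in H460 (22.3%, adjusted p = 1.58e-06) and from 12.8, 12.4 and 13.1 to 5.03, 4.59 and 4.61 in A549 (37.1%, adjusted p = 4.16e-06). It had the largest fall of the 4 in both lines.

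Of the spindle assembly and cytokinesis genes, 2 of 8 tested fell in H460 and 5 of 9 in A549. This was below the share of all tested genes in H460 (41.5%) and above it in A549 (27%). TACC3, which with clathrin and ch-TOG bundles kinetochore fibres, went from 39.1, 43.4 and 42.3 FPKM to 7.17, 5.98 and 6.87 in H460 (16.0% of control, adjusted p = 7.9e-07, limma) and from 30.3, 29.7 and 33.6 to 14.1, 13.9 and 14.8 in A549 (45.7%, adjusted p = 9.08e-06). TPX2, the activator of AURKA on the spindle, was at 123, 127 and 121 in H460 controls and 109, 106 and 77.9 after ISP-I, without overlap but short of the threshold (79.2%, adjusted p = 0.0764). In A549 it fell from 138, 133 and 119 to 74.7, 69.9 and 72.7 (55.7%, adjusted p = 4.7e-05), and it was the most abundant of the 50 mRNAs in H460 after ISP-I. DLGAP5, a partner of TPX2, fell to 52.1% and 45.5% with overlapping groups, and in A549 it still passed only when control library 3 was the one left out (adjusted p = 0.0592 to 0.0943 without each of the others), and in H460 it no longer passed after median-of-ratios scaling (adjusted p = 0.0760) and without control library 1 or 3 or ISP-I library 1 (adjusted p = 0.0636 to 0.0910).

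HMMR, a spindle pole protein with 36.2% GC, read 12.2, 5.43 and 9.76 FPKM in H460 controls and 7.65, 15.6 and 5.33 after ISP-I, and 21.1, 22.0 and 7.72 in A549 controls and 11, 12.6 and 13.8 after ISP-I. Both pairs overlapped (adjusted p = 0.999 and 0.480, limma), its sign in H460 changed with the scaling, and without A549 control library 3 it passed with a lower level in A549 (-0.75, adjusted p = 2.1e-05). ASPM, of the spindle poles, and ECT2, the exchange factor that activates RhoA at the cell equator, did not pass in either line (adjusted p = 0.0861 to 0.413); with the GC trend removed both passed with lower levels in both lines. ANLN (anillin), the scaffold of the contractile ring, was at 32.3, 19.9 and 26.6 in H460 controls and 18.6, 25.8 and 10.0 after ISP-I (adjusted p = 0.127) and fell to 53.4% in A549 (adjusted p = 0.0139; 0.0540 without ISP-I library 1). PRC1, which bundles the midzone microtubules, was listed at 0.201, 0.143 and 0.328 FPKM in H460 controls and 0.0810, 0.0761 and 0.183 after ISP-I, and at 0.153, 0.320 and 0.233 in A549 controls and 0.158, 0.0577 and 0.101 after ISP-I, from 5 to 27 reads. NUSAP1, which binds microtubules near chromatin, was listed at 0 to 8 reads in H460, where its mean was too low for the test, and at 7 to 18 reads in A549, where it fell (log2 fold change -0.20, adjusted p = 0.0171; 0.0579 and 0.0524 without control library 1 or 2). In GENCODE v44, another gene on the same strand covers 57.6% of the exon bases of PRC1, and such genes cover 86.8% of those of NUSAP1, as against at most 12.6% for the other members; the part of this in their low values was not tested.

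TOP2A and MKI67 fell in both lines. TOP2A, which untangles chromosomes before anaphase, went from 56.4, 32.3 and 44.3 FPKM to 8.43, 15.1 and 4.46 in H460 and from 154, 157 and 68.9 to 36.8, 42.1 and 39.5 in A549. Its treated libraries lay below every control, at 21.0% in H460 (adjusted p = 0.00063, limma) and 31.2% in A549 (adjusted p = 0.00177). MKI67, which coats mitotic chromosomes and is used as a marker of cycling cells, went from 35.2, 29.8 and 42.4 to 10.6, 15.5 and 5.41 in H460 (29.3%, adjusted p = 0.000973) and from 60.4, 67.4 and 42.1 to 17.6, 18.0 and 15.4 in A549 (30.1%, adjusted p = 6.32e-05). The differences of their responses between the lines were -0.67 ± 0.528 and -0.11 ± 0.396 SE and did not pass (adjusted p = 0.3 and 0.825).

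Most members that fell in one line fell in the other. Of the 37 members that passed with lower levels in H460 and the 41 in A549, 36 were shared, or 97.3% and 87.8%. Of the 29 and 18 called, 16 were shared, or 55.2% and 88.9%, with KIF14 and KIFC1 called in A549 alone. KIF14 was just short of 2-fold in H460 (log2 fold change -0.993, adjusted p = 0.00769, limma). The difference of its responses did not pass (0.20, adjusted p = 0.709, limma). The difference itself was tested over the 12 libraries. A lower response in H460 means a log2 fold change below that in A549, which for genes that fell in both lines is the larger fall. By that test 21 members had a lower response in H460 (34.7% of all tested genes did) and 3 a higher one (18.6%), and 11 and 1 differed by over 2-fold (10.1% and 5.93%). The 11 were KIF20A, KIF18B, SPC24, SPC25, CENPI, CENPA, NUF2, MAD2L1, PLK1, AURKB and TACC3, with differences from -2.15 ± 0.171 for SPC24 to -1.07 ± 0.138 SE for MAD2L1. The median difference of the members was -0.39 beside -0.16 for all genes, or -0.22 relative to all genes, which became -0.10 after median-of-ratios scaling and -0.13 with voom on TMM factors. Of the members, 10 or 11 were called lower under each scaling except quantile normalization, which left 7. Of all genes, 5.91% were called lower after median-of-ratios scaling, 13.1% with voom on TMM factors and 6.59% after quantile normalization. With voom on library totals 20.9% of all genes were, so there the count of members was near the share of all genes. After median-of-ratios scaling 14 rather than 21 passed lower (23.6% of all genes did), and with the GC trend removed 18 did (27.5% of all genes). Across the members the log2 fold changes of the lines had a Pearson correlation of 0.747 and a Spearman correlation of 0.710, given as a description, since genes are not independent replicates. The 6 kinases and passenger proteins passed with the lower response in H460, but BIRC5 and CDCA8 did not pass after median-of-ratios scaling (adjusted p = 0.218 and 0.417, limma) or with the GC trend removed (0.0844 and 0.158). Both also missed the threshold without H460 control library 2 (0.0521 and 0.0644) or A549 control library 2 (0.0552 and 0.0575), and CDCA8 did when any of 3 other libraries was left out (0.0534 to 0.0652). KIFC1, TPX2 and KIF18A were the 3 with the higher response, TPX2 by 0.48 ± 0.172 SE (adjusted p = 0.0322, and 0.0505 to 0.0784 without any of 9 single libraries).

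In the controls, with all control libraries kept, the shares of members that differed between the lines did not exceed those of all genes. Compared with A549 controls, 13 members were higher in H460 controls (28.6% of all tested genes) and 10 lower (31.6%), 0 and 4 of them by over 2-fold (5.64% and 8.78%), by limma. The 4 were KIF18A, KIF23, ECT2 and TOP2A, at 35.2%, 35.5%, 28.9% and 35.1% of the A549 mean. Among the higher ones, ESPL1 was at 154%, SPC25 at 149% and PTTG1 at 145%, and PLK1 at 135%. The lower ones depended on A549 control library 3. Without it 22 members were lower (35.1% of all genes) and 13 of them were called (9.44%), both above the shares of all genes. Without A549 control library 1 there were 4 (27.1%). Without A549 control library 2 or H460 control library 2 there were 5 (27.8% and 27.6%). CDC20 was at 174 ± 16.4 FPKM in H460 and 174 ± 24.0 in A549 (SD, n = 3, adjusted p = 0.993).

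Other genes of the pathway were read from 7 lists of 149 genes in all. Of the 146 tested in each line, 78 fell and 13 rose in H460, and 63 fell and 14 rose in A549, with medians of -0.47 and -0.26. Of all tested genes, 41.5% fell and 27.6% rose in H460, and 27% fell and 30.5% rose in A549. Among the regulators of these promoters, FOXM1 was at 32.6, 35.3 and 44.2 FPKM in H460 controls and 6.41, 5.94 and 5.40 after ISP-I (15.8% of control, adjusted p = 1.81e-06, limma), and at 34.2, 38.0 and 38.8 in A549 controls and 14.4, 12.9 and 13 after ISP-I (36.3%, adjusted p = 3.95e-06). MYBL2, which encodes B-MYB, fell to 19.3% and 35.7%, and TFDP1, a partner of the E2F proteins, to 21.2% and 58.4%. In that list of 15, 6 fell and 3 rose in H460 and 5 fell and 1 rose in A549, with median log2 fold changes of -0.03 and -0.06 beside -0.15 and 0.02 for all genes.

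Of 34 other centromere and kinetochore genes, 21 fell and 3 rose in H460 and 16 fell and 3 rose in A549. For the lists given here, the shares of all tested genes were 41.5% lower and 27.6% higher in H460, and 27% and 30.5% in A549. HJURP, the chaperone that loads CENPA, fell to 16.4% and 40.0% of control, SKA1, which couples kinetochores to microtubules, to 21.3% and 37.8%, and ZWINT, a partner of KNL1, to 35.1% and 50.3%. In the 30 spindle microtubule and centrosome genes 18 fell and 0 rose in H460 and 15 fell and 2 rose in A549, with PSRC1 at 7.12% and 42.8%, GTSE1 at 15% and 40.1% and SPAG5 (astrin) at 21.9% and 39.7%. In the 9 cytokinesis genes 4 fell and 1 rose in H460 and 5 fell and 1 rose in A549. Citron kinase (CIT) stood at 6.22% and 30.3%, ARHGEF39 at 8.52% and 38.8% and DEPDC1B at 32.5% and 30.7%.

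In the list of 18 condensin and cohesin genes, 8 fell in each line, beside 41.5% of all tested genes in H460 and 27% in A549. The share in H460 was near that of all genes. In H460 2 rose and in A549 1 did (27.6% and 30.5% of all genes). The median log2 fold changes were -0.12 and -0.37 beside -0.15 and 0.02 for all genes. The listed genes with the smallest p in a line were the condensin subunits NCAPD2 (20.7% and 25.4% of control), NCAPD3 (19.4% and 49.2%) and NCAPH (26.5% and 46.2%) and the cohesin protector sororin, CDCA5 (28.4% and 81.0%). Of 17 anaphase-promoting complex genes, 10 fell and 1 rose in H460 and 6 fell and 3 rose in A549, with medians of -0.83 and -0.06. ANAPC1, a scaffold subunit, fell to 36.8% in H460 and 76.3% in A549, FZR1, the other activator, to 52.1% and 53.5%, and ANAPC16 was at 37.7% and 95.3%, the latter not passing (adjusted p = 0.491). ANAPC13, a small subunit, rose to 134% and 151%.

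A last list held 26 kinesins of transport and interphase. Of 23 tested in each line, 11 fell and 3 rose in H460 (41.5% and 27.6% of all genes) and 8 fell and 3 rose in A549 (27% and 30.5%). The median log2 fold changes were -0.24 and -0.16 beside -0.15 and 0.02 for all genes. KIF5B, the heavy chain of conventional kinesin, read 23.4, 13.4 and 21.1 FPKM in H460 controls and 20.7, 38.2 and 13.4 after ISP-I, and 62.4, 61.4 and 26.9 in A549 controls and 49.6, 51.4 and 53.6 after ISP-I, with no passing difference (adjusted p = 0.591 and 0.716, limma). KIF3C fell to 12.2% and 47.3%. KIF26A fell to 11.1% of control in H460 (21.6 ± 2.23 to 2.39 ± 0.533 FPKM) and was at 116% in A549 (adjusted p = 0.115), and KIF1A rose in A549 from 0.123 ± 0.0333 to 0.917 ± 0.0430 FPKM (SD, n = 3).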

How the data were processed

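The authors sequenced paired-end reads from TruSeq libraries and, by the submitters' processing notes, used FastQC, HISAT2, hg38 and HTSeq 0.9.1, and deposited FPKM per gene. The annotation release and strand setting are not given in the sources used here. FPKM times listed length gave whole reads (within 0.01 read) for 100% of values. Columns name line and treatment only, so libraries were numbered by their order within a group. Of the table's lines, 4 were broken and left out. ISP-I was compared with control in each line, and the controls between lines, with limma 3.58.1 (R 4.3.3, mean-variance trend) on log2(FPKM + 1) keeping genes that averaged 0.1 FPKM or more, and the responses of the lines were compared by an interaction term over 12 libraries. All p values are Benjamini-Hochberg adjusted over all tested genes. The members and lists were chosen with earlier results of these data known. Values in every library were given for 8 textbook mitotic genes, the largest and smallest change of each group and line, members called in the difference and members of opposite sign. Of each list of other genes, the 2 with the smallest p in each line and FOXM1, MYBL2 and KIF5B were named, and further values were added after they were seen. Alternatives were other pseudocounts, filters, scalings, voom on recovered reads, stricter tests, a joint fit and leaving out each library, and, chosen after seeing the data, removal of each library's GC trend. The tests were checked on simulated counts without a GC trend between libraries, so that check does not cover the spread that followed GC content.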

Additional observations from a re-analysis of the deposited data

Results flagged for a closer look

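The response to ISP-I differed between H460 and A549 by more than 2-fold for 12 members in the interaction test over 12 libraries (limma, Benjamini-Hochberg adjusted p). Differences are the log2 fold change in H460 minus that in A549. The H460 response was lower by a log2 difference of -2.15 for SPC24 (adjusted p = 1.05e-06), -2.02 for KIF20A (adjusted p = 1.44e-07), -1.80 for KIF18B (adjusted p = 1.28e-06), -1.66 for AURKB (adjusted p = 1.78e-05), -1.65 for SPC25 (adjusted p = 0.000195) and -1.62 for PLK1 (adjusted p = 1.23e-06). It was also lower by -1.40 for TACC3 (adjusted p = 1.95e-06), -1.33 for CENPI (adjusted p = 0.000158), -1.26 for CENPA (adjusted p = 0.000397), -1.24 for NUF2 (adjusted p = 0.00549) and -1.07 for MAD2L1 (adjusted p = 4.5e-05). For KIF18A it was higher by 1.72 (adjusted p = 0.0232), and that call was lost without H460 control library 2 (1.47, adjusted p = 0.0591), A549 control library 1 (1.52, adjusted p = 0.0585), A549 control library 2 (1.5, adjusted p = 0.0580) or A549 ISP-I library 1 (1.58, adjusted p = 0.0554).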

How the results depend on the processing

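No paired analysis was possible because the columns carry no replicate numbers that match the labels. Depth was not a limit for most members, but PRC1 and NUSAP1 rested on at most 27 reads per library. Members called lower in H460 numbered 21 after median-of-ratios scaling (11.1% of all genes), with a median of -0.84, and the median was -1.32 with voom on library totals. In the difference between the lines, all genes split into 1407 called lower and 827 higher, but 825 and 1298 after median-of-ratios scaling. The A549 median was -0.97 with a pseudocount of 0.1, -0.89 after quantile normalization, -1.02 with voom on library totals, -1.09 with voom on TMM factors and -1.001 with the GC trend removed. With voom on TMM factors 29 members were called lower in A549 (10.3% of all genes). After quantile normalization 7 were called lower in the difference (6.59% of all genes). Against a 1.5-fold change (limma treat), 0 members passed higher and 0 were called higher in H460. Most members that passed lower in H460 still passed lower, as did 17.0% of all genes. In A549, 16 passed lower (4.75% of all genes). In the difference 10 passed lower (9.23%) and 0 passed or were called higher. In the baseline 2 passed lower (9.95%), 2 were called lower (8.38%) and 0 passed higher. At an adjusted p under 0.01, 0 members passed higher and 0 were called higher in H460. In the difference 1 passed higher and 0 were called higher, and 4 passed lower in the baseline (24.4% of all genes). Leaving out each library in turn gave 1 to 2 members passing higher and 0 to 1 called higher in H460, and an A549 median of -1.02 to -0.80. In the difference 1 to 4 passed higher and 0 to 1 were called higher. In the baseline 4 to 22 passed lower and 3 to 13 were called lower. Of all genes, 27.1% to 35.1% passed lower and 8.64% to 9.44% were called lower in those baseline fits. HMMR in H460, at -0.00, turned to 0.25 with median-of-ratios scaling, 0.12 with quantile normalization, 0.0017 with voom on library totals and 0.26 with voom on TMM factors, and ranged from -0.39 to 0.31 without single libraries (0.22, 0.07, 0.08 and 0.31 where it turned). TTK in H460 ranged from -0.62 to 0.11 without single libraries and turned without ISP-I library 3. The cause was not tested. Of the values of single genes under alternatives, 1974 kept direction and side of the threshold, 191 no longer passed, 33 came to pass, and 9 turned.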
